A study of Homo sapiens with 5 samples.

Results

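Origins over single-direction coding promoters were the 3-hour ini-seq 2 origins whose interval contained the 5′ end of at least 1 protein-coding gene record of GENCODE 44, with all such gene starts on the same strand. They numbered 6915 of the 23905 origins called after 3 hours, 28.9% of the list, and are called single-direction origins here. A further 681 origins contained coding gene starts on both strands, in any order, and are called divergent origins here. The start of a long non-coding RNA (lncRNA) gene but of no coding gene was in 1009, and 15300 contained neither. The coding starts were on the plus strand in 3515 single-direction origins and on the minus strand in 3400. Together the origins contained 7103 coding starts, covered 8.575 Mb of hg38 and took up 36.5% of all bases in 3-hour origins. Of these, 6734 contained 1 coding gene record, 174 contained 2 and 7 contained 3. No other gene start of any kind was present in 5430 of them, and 1183 (17.1%) also contained the start of an lncRNA gene on the opposite strand. Single direction refers to the interval alone: 229 of the 7103 coding starts had an opposite coding start within 1 kb.

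All data came from EJ30, an established human bladder carcinoma cell line, and no treatment, genotype or second line was compared. In ini-seq 2, nuclei from cells arrested in late G1 phase with mimosine were incubated for 3 hours or for 15 minutes in cytosolic extract of HeLa cells with Br-dUTP, and replicated heavy-light DNA (HL) was parted from unreplicated light-light DNA (LL) on density gradients, so the origins are those that fired in isolated nuclei and not in living cells. In SNS-seq, short nascent strands of 0.5-2 kb and of 2-4 kb were isolated from the same line and sequenced. Each condition was represented by 1 deposited list, 23905 and 10181 origins for ini-seq 2 and 147657 and 184966 peaks for SNS-seq, so there were no replicates, and tests between classes of origins used the 23 chromosomes 1 to 22 and X as blocks.

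Replication origins are the places where a pair of diverging forks starts from DNA that was licensed by loading of the MCM helicase. In human cells no fixed sequence defines them, and they are known to favour CpG islands, open chromatin and active promoters. A promoter that serves a single coding gene has a direction: RNA polymerase II initiates at the gene start and elongates in a single direction, the first nucleosome downstream is strongly positioned, and many such promoters also give short, unstable upstream antisense transcripts. GC skew, an excess of G over C on the nontemplate strand past the start, is a known feature of CpG island promoters and goes with the formation of RNA:DNA hybrids. The position of an origin relative to the start can therefore be read along the direction of transcription, which is not possible for divergent gene pairs.

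The bases just upstream of the gene start are printed for 7 single-direction origins that recur in the results, as examples of the promoters concerned. Each is the stretch of 120 bases that ends 1 base before the start, on the coding strand of hg38, in no annotated exon, with GC boxes (GGGCGG, or CCGCCC on the other strand), CCAAT boxes in either direction and TATAA on the coding strand in capitals. KLF13 (chr15:31326715-31326834, plus strand) and CAMK1D (chr10:12349427-12349546, plus strand) were among the origins of highest efficiency. USP12 (chr13:27171812-27171931, minus strand) and LRP5 (chr11:68312471-68312590, plus strand) had some of the highest scores at 15 minutes. TOP1 (chr20:41028702-41028821, plus strand) is an origin mapped by classical methods. GYPC (chr2:126656013-126656132, plus strand) and SERPINB9 (chr6:2903310-2903429, minus strand) were efficient at 3 hours but not called at 15 minutes.
KLF13: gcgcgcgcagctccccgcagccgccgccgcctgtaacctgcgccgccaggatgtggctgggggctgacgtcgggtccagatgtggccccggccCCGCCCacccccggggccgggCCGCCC
CAMK1D: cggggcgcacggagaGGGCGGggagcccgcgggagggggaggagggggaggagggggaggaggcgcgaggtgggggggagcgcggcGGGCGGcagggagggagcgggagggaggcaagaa
USP12: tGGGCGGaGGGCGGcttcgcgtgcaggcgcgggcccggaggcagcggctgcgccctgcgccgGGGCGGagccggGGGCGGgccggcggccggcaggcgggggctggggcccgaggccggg
LRP5: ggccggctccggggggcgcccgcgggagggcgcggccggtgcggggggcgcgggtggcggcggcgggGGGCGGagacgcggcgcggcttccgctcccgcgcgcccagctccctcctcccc
TOP1: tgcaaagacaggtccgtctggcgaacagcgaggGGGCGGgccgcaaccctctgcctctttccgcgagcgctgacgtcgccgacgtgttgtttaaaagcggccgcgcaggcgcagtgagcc
GYPC: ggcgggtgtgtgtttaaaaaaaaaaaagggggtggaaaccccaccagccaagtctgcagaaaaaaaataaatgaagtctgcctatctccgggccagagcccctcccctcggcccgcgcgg
SERPINB9: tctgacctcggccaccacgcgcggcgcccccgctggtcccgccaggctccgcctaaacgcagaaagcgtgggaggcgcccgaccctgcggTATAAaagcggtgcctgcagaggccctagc

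The USP12 stretch held 4 GC boxes, those of KLF13 and CAMK1D 2 each, those of LRP5 and TOP1 1 each and those of GYPC and SERPINB9 0. SERPINB9 was the only stretch of the 7 with TATAA. GC content ran from 55% for GYPC and 66.7% for TOP1 to 88.3% for USP12 and 89.2% for LRP5. The central 100 bases of 2 origins whose centre fell in an intron outside any annotated exon are also given, since they show the base composition at the origin centre itself; capitals mark runs of at least 3 G or 3 C. They are from ANP32B (chr9:97984051-97984150, plus strand) and LRP5 (chr11:68313001-68313100, plus strand), and each had a GC content of 83.0%.
ANP32B: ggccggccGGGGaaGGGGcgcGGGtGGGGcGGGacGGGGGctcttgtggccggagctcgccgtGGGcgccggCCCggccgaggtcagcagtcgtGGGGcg
LRP5: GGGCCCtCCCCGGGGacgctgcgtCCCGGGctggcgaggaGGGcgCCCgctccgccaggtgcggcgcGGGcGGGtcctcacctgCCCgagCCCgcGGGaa

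The first question was where single-direction origins lay relative to the gene start. The origin centre lay downstream of the start, inside the gene, in 5564 of 6915 single-direction origins (80.5%, 95% Clopper-Pearson interval 79.5 to 81.4%). The median offset was 166.5 bp in the direction of transcription, with quartiles of 43.5 and 314.5 bp, and 5% of the centres lay more than 725.5 bp downstream. The rule fixed that the start had to be inside the interval, which limits the size of the offset, but it did not fix the side. Per-chromosome medians were positive on 23 of 23 chromosomes, from 116.5 bp on chromosome 4 to 190.5 bp on chromosome 19 (SD over chromosomes 17.96 bp; permutation test by 100000 two-sided sign flips over chromosomes, adjusted p = 1.4e-05 from the smallest p these flips can give, 1e-05). The 2 strands gave the same picture in mirror image: measured in genome orientation, the centre lay at a median of 168.5 bp to the right of plus-strand starts and at -165.5 bp, to the left, of minus-strand starts.

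**Figure D1:**
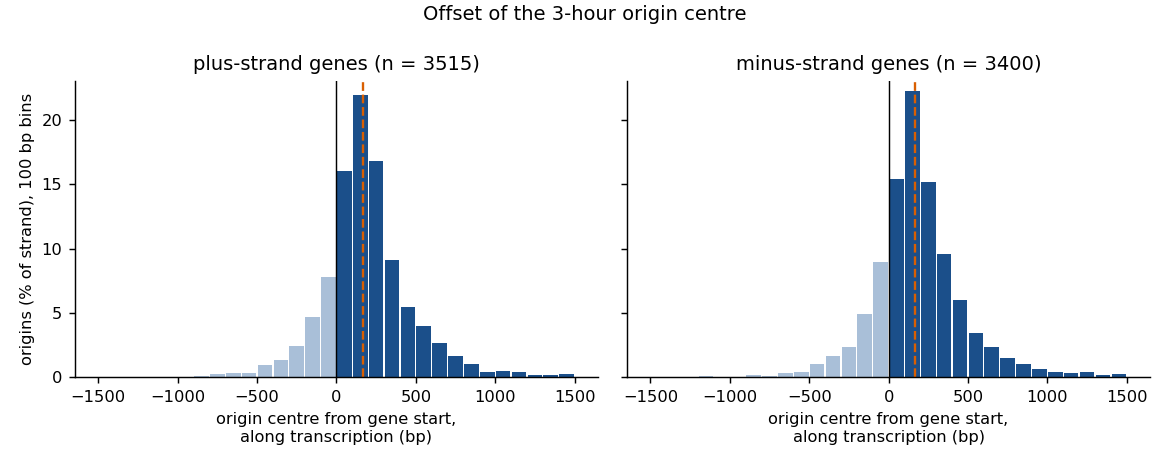
Distance of the 3-hour origin centre from the gene start along transcription (bp, bins of 100 bp) against the share of origins, for plus-strand (n = 3515) and minus-strand (n = 3400) genes; dark bars are downstream, the solid line is the start and the dashed line the median (168.5 and 165.5 bp). The 2 histograms have the same shape, with the highest bar between 100 and 200 bp downstream on both strands.

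Seen from the edges, the interval extended a median of 295 bp upstream and 655 bp downstream of the start, so a median of 31.2% of its length lay upstream. The offset grew with interval length. Its median was 76.5 bp in origins of up to 500 bp, 158.5 bp in those of 600 to 1000 bp, 241.5 bp in those of 1100 to 2000 bp and 496.5 bp in longer ones. The share downstream did not follow length in that way, at 74.1%, 84.1%, 80.7% and 74.6%. By efficiency class, the 3 classes of equal size over all 3-hour origins, the median offset was 180.5 bp in high, 148.5 bp in medium and 118.5 bp in low single-direction origins, with 83.4%, 77.5% and 72.5% downstream. Origins that also contained an antisense lncRNA start had a median offset of 168.5 bp, and so had those with no other gene start.

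The 5′ end of a gene record is its most upstream annotated transcript start, which by itself pushes distances downstream. Where the start of the canonical transcript (MANE Select where given) was used in its place, it lay inside 6448 single-direction origins (93.2%), and the centre was a median of 128.5 bp downstream of it, with 75.2% downstream. In the 3509 origins whose gene start and canonical start are the same base, the median was 158.5 bp and 79.1% lay downstream. Origins chosen anew by canonical starts, 8753 in all, gave 132.5 bp. The first and the last of these values were positive on 23 of 23 chromosomes. For comparison, origins with an lncRNA start only, with all lncRNA starts on the same strand, had a median offset of -25.5 bp along lncRNA transcription and 46.7% of centres downstream (n = 963); the difference from the single-direction origins was not tested. In divergent origins, measured from each of 1421 coding starts, the median was -0.5 bp, a value that the opposite directions of the paired genes pull towards 0.

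In terms of the canonical gene model, the centre of 26.9% of single-direction origins fell in the 5′ UTR of the first exon, that of 15.5% in the first exon at or after the start codon, and that of 1801 (26.05%) in the first intron. It lay upstream of the gene start in 19.5% and between the gene start and the canonical start in 10.3%. Origins centred upstream had a median efficiency of 0.906 and 67.4% of them were called at 15 minutes, where 40.1% of all 3-hour origins were. Those centred in the first exon past the start codon had 0.928 and 76.3%. Where the canonical start was inside, 5631 origins (87.3%) reached past the end of the first exon into the first intron or beyond, by a median over all 6448 of 351 bp. The longer the first exon, the farther downstream the centre lay: at first exons of up to 100 bp the median offset from the canonical start was 76.5 bp, at 100 to 200 bp 102.5 bp, at 200 to 400 bp 140.5 bp, at 400 to 800 bp 189.5 bp and above 800 bp 266.0 bp. Median origin length rose in the same order, from 900 to 1400 bp, and its part in this relation was not tested.

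The other 3 lists, which had no part in choosing these origins, also lay downstream. The 15-minute origin with the largest overlap was centred a median of 175.5 bp downstream of the start (n = 5062, 83.5% downstream). For SNS-seq, 78.0% of all 3-hour origins overlapped a 0.5-2 kb and 91.3% a 2-4 kb peak, and 93.5% (92.9 to 94.03%) and 98.5% (98.2 to 98.8%) of the single-direction origins did. The peaks of largest overlap were centred 195.0 bp downstream in the 0.5-2 kb fraction (n = 6463, 75.7%) and 209.5 bp downstream in the 2-4 kb fraction (n = 6811, 72.6%). All 3 medians were positive on 23 of 23 chromosomes (permutation test by sign flips over chromosomes, adjusted p = 1.4e-05 for each). The 15-minute origins and the peaks were picked by overlap with the 3-hour origin, so they share its side to some degree. Taking the nearest SNS-seq peak centre within 5 kb of the start, overlapping or not, gave 152.5 and 168.75 bp. The 15-minute list was not measured in this way.

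**Figure D2:**
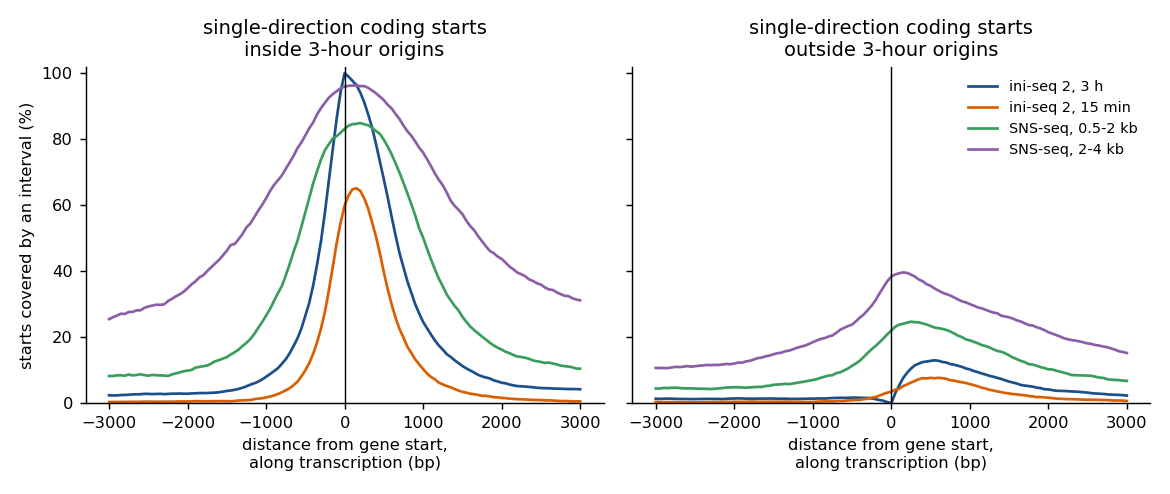
Share of coding gene starts (%) covered by an interval of each of the 4 lists, at 50 bp steps of distance along transcription, for starts in single-direction origins (left, n = 6915) and for starts in no 3-hour origin with no opposite coding start within 1 kb (right, n = 10435). The 3-hour curve is 100% at the start on the left, and 0 on the right, because of how the starts were chosen; the other maxima on the left lie 150 to 200 bp downstream.

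Coverage around the start showed the same asymmetry without any use of centres. For the 3-hour list it restates the interval edges given above and is not a separate result. At 500 bp upstream 26.5% of the starts were covered by a 3-hour origin and at 500 bp downstream 67.8%. The 15-minute list covered 10.01% and 39.7% at these distances, the 0.5-2 kb SNS-seq peaks 57.9% and 79.8%, and the 2-4 kb peaks 81.2% and 91.8%. Coverage was highest at 150 bp downstream for the 15-minute list (65.1%), at 200 bp for 0.5-2 kb SNS-seq (84.9%) and at 150 bp for 2-4 kb SNS-seq (96.3%). Among 10435 single-direction starts that lay in no 3-hour origin, 3-hour coverage was still greater downstream, at 12.9% 500 bp into the gene against 1.72% at 500 bp upstream, and the 2-4 kb SNS-seq peaks covered 38.4% of these starts.

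Containment in the interval is a sharp limit on a list with a resolution of 100 bp. Just inside it, 1098 single-direction origins had the start less than 100 bp from an edge, in 938 of them from the upstream edge and in 160 from the downstream edge. Just outside it, 646 origins without a coding start inside had a coding start within 100 bp of an edge, and 562 of these lay downstream of that start. Their median efficiencies were 0.908 and 0.904, and 51.0% and 50.6% were called at 15 minutes. Without the requirement of containment, the nearest origin centre within 2 kb of each coding start with no opposite coding start within 1 kb, an alternative chosen after the data had been seen, lay a median of 224.5 bp downstream (n = 9302, 82.1% downstream, 23 of 23 chromosomes).

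The extreme offsets came from long origins of low or medium efficiency. EGFL7, which encodes a secreted endothelial factor, had an origin of 10900 bp on chromosome 9 (136658701 to 136669600), efficiency 0.832, centred 5294.5 bp downstream of the gene start. The 15-minute origin of largest overlap there was 1300 bp long and centred 7094.5 bp downstream. ADAM8, a membrane metalloprotease gene, had an origin of 10800 bp centred 4367.5 bp downstream. Its 15-minute origin of largest overlap, 1000 bp long, was centred at -32.5 bp, just upstream of the start. PLXNB2, a semaphorin receptor gene, likewise had 3295.5 bp at 3 hours and 95.5 bp at 15 minutes. TAS1R3 (4120.5 bp, taste receptor subunit) was not called at 15 minutes, and COL9A3 (3206.5 bp, a collagen chain) had a 15-minute centre at 806.5 bp. On the other side, MMP23B (-4362.5 bp), CRIP2 (-3411.5 bp), TNNI2 (-2330.5 bp), TMEM52 (-2221.5 bp) and DNLZ (-2056.5 bp) lay farthest upstream. TMEM52 and DNLZ had 15-minute origins of 1000 bp centred at -21.5 and -56.5 bp. In 4 of these 10 long origins, ADAM8, PLXNB2, TMEM52 and DNLZ, the centre of the 15-minute origin of largest overlap was thus within 100 bp of the start. Any further 15-minute origins inside these long intervals are not described.

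A second question was whether the called intervals of the 2 reaction times differed more on the downstream or on the upstream side. The lists came from separate reactions, so gain here means the distance between called edges. Per the paper, the libraries of the short reaction held fewer reads than those of the long reaction. How far this difference in depth shaped the gain was not tested. In 4935 pairs of a single-direction origin and a 15-minute origin that overlapped only each other, the interval had a median of 700 bp in the short and 1100 bp in the long reaction. The 15-minute interval extended a median of 185 bp upstream and 536 bp downstream of the start, and the 3-hour interval of the same pairs 335 and 740 bp. The mean gain was 230.1 bp upstream and 266.3 bp downstream, a difference of 36.2 bp that was positive on 18 of 23 chromosomes (permutation test by sign flips over chromosomes, adjusted p = 0.00086). The median difference was 0 bp: the downstream gain was larger in 2206 pairs, the upstream gain in 1860, and both were equal in 869. The difference was 199.69 bp on chromosome 19 and 24.8 bp over the others. The rule required the 3-hour interval, but not the 15-minute one, to contain the start. Where both contained it (4051 pairs) the mean difference was 67.98 bp, positive on 23 of 23 chromosomes (permutation test by sign flips, unadjusted p = 1e-05), and it was 52.57 bp where no other gene start lay inside (21 of 23 chromosomes). In origins of up to 1000 bp the mean difference was 0 bp (n = 2168, permutation test by sign flips, unadjusted p = 0.7).

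The 15-minute origin contained the gene start in 4122 of the 5062 single-direction origins called at that time (81.4%). Of the 940 in which it missed the start, 843 (89.7%) had it centred downstream and 97 upstream. Of all 10181 origins called at 15 minutes, 5164 (50.7%) overlapped a single-direction origin. Their median Z-score, the score deposited for that list, was 0.173, against -0.137 for the other 5017.

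Efficiency, the share HL/(HL + LL) that the authors required to be at least 0.8, was higher at single-direction origins than elsewhere in the list. Its mean was 0.911 (SD over origins 0.0446, n = 6915), its median 0.918 with quartiles of 0.881 and 0.946, and 11 origins had the highest possible value of 1. All other 3-hour origins had a mean of 0.865 (SD 0.0501, n = 16990), and the difference of 0.0460 was positive on 23 of 23 chromosomes (permutation test by sign flips over chromosomes, adjusted p = 1.4e-05). Of all 3-hour origins 33.3% are in the high class by its construction; of the single-direction origins 4043 (58.5%) were in it, 2225 (32.2%) in the medium and 647 (9.36%) in the low class. Single-direction origins were also longer (median 1000 against 600 bp) and richer in GC (mean 69.3% against 66.0%). Within origins of equal length the difference was 0.0402 and within 10 GC groups 0.0177, each positive on 23 of 23 chromosomes.

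The most alike classes differed less. Divergent origins had a mean efficiency of 0.898 and origins over lncRNA starts only 0.896. Single-direction origins were 0.0121 above the former (19 of 20 chromosomes with at least 10 origins of each class) and 0.0143 above the latter (22 of 23 chromosomes; adjusted p = 1.4e-05 for both by the same permutation test). Within 10 GC groups the first difference turned to -0.00217 (4 of 20 chromosomes positive, permutation test, unadjusted p = 0.024) and the second shrank to 0.00282 (unadjusted p = 0.046). Higher efficiency of single-direction than of divergent origins thus held over all origins and not among origins of like GC content.

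The third question was how many of these origins were also called in the 15-minute list. Whether the lower read depth of the short reaction left origins uncalled was not tested. Over all 3-hour origins 40.1% overlapped a 15-minute origin by at least 1 bp, and of the single-direction origins 5062 did (73.2%, 72.1 to 74.2%). Of all other 3-hour origins 26.7% did, a difference of 46.5 percentage points (23 of 23 chromosomes, permutation test by sign flips, adjusted p = 1.4e-05). Recall rose steeply with efficiency within the single-direction origins, from 11.0% at efficiencies of 0.8 to 0.82 to 60.6% at 0.88 to 0.9 and 98.6% at 0.96 to 0.98. At the same efficiency it was higher than in origins with no coding or lncRNA start, which had 2.06%, 29.9% and 87.7% in these bins. Within 20 efficiency groups the difference from all other origins was 18.7 points and, with 4 length groups crossed in, 8.49 points, positive on 23 of 23 chromosomes in both.

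**Figure D3:**
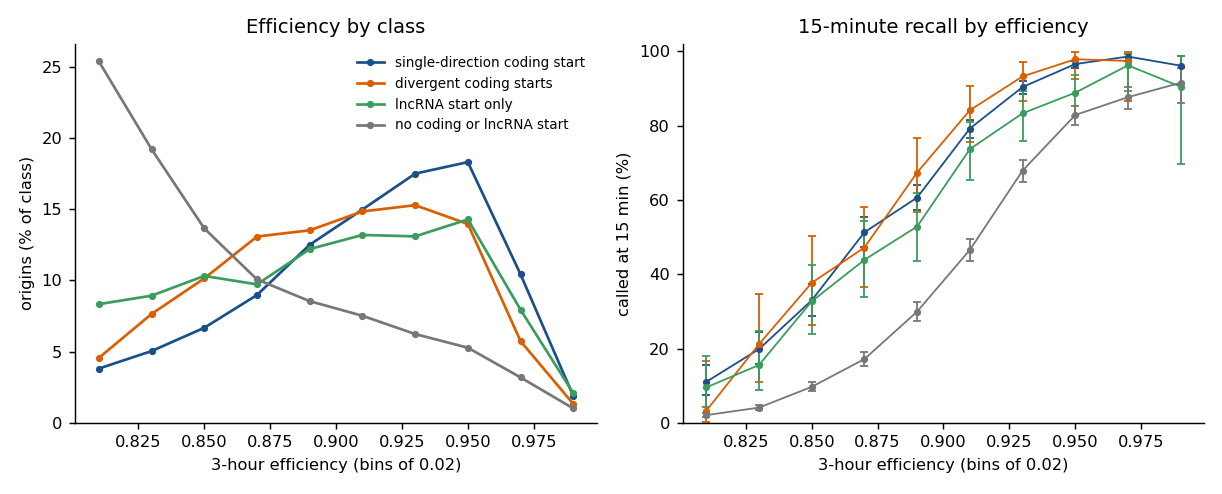
Left, share of each class of 3-hour origins (%) in efficiency bins of 0.02. Right, share of the origins in each bin that overlapped a 15-minute origin (%), with exact 95% binomial intervals and bins of at least 20 origins. On the right the 3 classes over gene starts lie above origins without a coding or lncRNA start up to an efficiency of 0.98; at 0.88 to 0.9 they are at 67.4% (divergent), 60.6% (single-direction) and 52.8% (lncRNA only).

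By class, 92.6% of high, 54.5% of medium and 16.4% of low single-direction origins were called at 15 minutes, against 75.7%, 22.8% and 3.505% of all other origins. By length, recall was 27.1% in origins of 300 to 500 bp, 71.1% at 600 to 1000 bp, 88.4% at 1100 to 2000 bp and 88.04% above that. The values for all other origins at these lengths were 8.14%, 33.2%, 52.1% and 48.5%. Longer intervals have more room to be overlapped, and the part of that in the trend was not tested. Origins called at 15 minutes had a median offset of 193.0 bp and the others 111.5 bp. The gap was also present inside the high class, at 186.5 bp (n = 3744) against 116.5 bp (n = 299). Origin length, with which the median offset also rose, was not held equal in either comparison. Its part in the gap was not tested.

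Against the most alike classes, single-direction origins were recalled 14.1 points more often than origins over lncRNA starts only (59.1%; 21 of 23 chromosomes, permutation test by sign flips, adjusted p = 3.9e-05) and 5.07 points more often than divergent origins (68.1%; 13 of 20 chromosomes, adjusted p = 0.029). The second difference changed with the setting (unadjusted permutation p-values). By this permutation test it was 9.60 points within origins of equal length, 4.08 points (p = 0.076) when at least 50% of the 15-minute origin had to lie inside, -1.82 points (p = 0.44) within 20 efficiency groups and -4.57 points (p = 0.039) within 10 GC groups. The difference from lncRNA starts kept its direction in the settings tried, at 7.24 points within GC groups, 5.99 points within efficiency groups and 4.09 points within 20 efficiency and 4 length groups (17 of 23 chromosomes, permutation test, unadjusted p = 0.0058).

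The 10 single-direction origins of highest efficiency among those of at least 1000 bp with 1 coding gene record had efficiencies of 0.987 to 0.994, and all 10 were called at 15 minutes and overlapped peaks of both SNS-seq fractions. Of all single-direction origins at efficiencies of 0.98 or more 96.2% were called at 15 minutes, and of all 3-hour origins 40.1%. The 0.5-2 kb and 2-4 kb peaks overlapped 93.5% and 98.5% of all single-direction origins, and 78.0% and 91.3% of all 3-hour origins. GLYR1, a nucleosome-binding reader gene, came first, with an origin on chromosome 16 from 4846801 to 4848100, efficiency 0.994. Its offset was -162.5 bp, and it was the only one of the 10 centred upstream. The 120 bases upstream of its start and the central 100 bases of the origin both overlap an annotated exon of another gene, UBN1. WDR90, a centriole gene on the same chromosome (648901 to 650000), had 0.992 and an offset of 139.5 bp. KLF13, a zinc finger transcription factor gene, had the longest of them, 3100 bp on chromosome 15 (31325601 to 31328700), with 0.991 and an offset of 315.5 bp. CAMK1D, a calcium-dependent kinase gene, had 0.990 and 103.5 bp. SOCS6 (5.5 bp), ATP9B (15.5 bp) and PLPPR3 (54.5 bp) were centred close to the start. SNX18 (341.5 bp), PDZD4 (464.5 bp) and ANP32B (759.5 bp) were centred farther into the gene. Their GC contents ran from 73.8% in ANP32B to 79.3% in SOCS6.

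High efficiency did not always go with a call at 15 minutes. Among origins of at least 500 bp without one, GYPC, which encodes glycophorin C, ranked first at 0.988 (chromosome 2, 126656101 to 126656600, 500 bp, offset 217.5 bp). SERPINB9, a granzyme B inhibitor gene, had 0.980 in 500 bp, ZNF507 0.974 in 600 bp, CNNM1 0.974 in 1000 bp and FAM110B 0.960 in 700 bp. In GYPC, CNNM1 and FAM110B the start lay 22 to 55 bp inside the upstream edge. All 5 overlapped peaks of both SNS-seq fractions, as did 93.5% (0.5-2 kb) and 98.5% (2-4 kb) of all single-direction origins and 78.0% and 91.3% of all 3-hour origins. GC content in the 5 ran from 71.5% to 76.6%, close to the most efficient 10 above.

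The reverse also occurred. ACADVL, a mitochondrial acyl-CoA dehydrogenase gene, had the lowest efficiency of any single-direction origin with 1 gene record that was called at 15 minutes: 0.802 over 2300 bp, with a 15-minute origin of 300 bp and a Z-score of -1.75. Its interval had a GC content of 59.7%. COL5A3 (0.803, 2700 bp), WNT3A (0.803, 3200 bp), PTGR1 (0.804, 1100 bp) and REEP2 (0.805, 1900 bp) followed. In 4 of these 5 the 15-minute origin was 300 to 400 bp long, and in WNT3A, which encodes a signalling ligand, it was 1200 bp.

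The highest 15-minute Z-scores were 2.56 at VKORC1L1, a vitamin K epoxide reductase gene, 2.55 at LRP5, a Wnt co-receptor gene, and 2.55 at USP12, a deubiquitinase gene. LRRFIP1 had 2.37 and ARHGAP10 2.36. VKORC1L1 reached this score with a short interval, 800 bp at 15 minutes and 400 bp at 3 hours, at a GC content of 81.2%. All 5 were centred downstream at both times, by 63.5 to 459.5 bp at 3 hours and by 87.5 to 226.5 bp at 15 minutes. At TOP1, which encodes topoisomerase I, the 15-minute origin was 600 bp long with a Z-score of 1.01, and its centre lay 278.5 bp downstream of the start against 228.5 bp at 3 hours.

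Sequence had no part in the choice of these origins. Over the 1 kb centred on the gene start, mean GC content was 66.4% in single-direction origins and 51.8% at the 10435 single-direction starts outside origins, and the observed over expected CpG ratio was 0.778 and 0.443. Of 17365 coding starts without an opposite coding start within 1 kb, 6874 (39.6%) lay in a single-direction origin. The share was 0 of 1235 starts below 40% GC, which allows up to 0.298% by the exact interval, and 3 of 1643 between 45 and 50%. It was 4.44% at 50 to 55% GC, 27.4% at 55 to 60%, 62.4% at 60 to 65%, 83.5% at 65 to 70%, 86.3% at 70 to 75% and 82.7% above 75%. The exact intervals of the 3 groups above 65% overlapped each other.

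**Figure D4:**
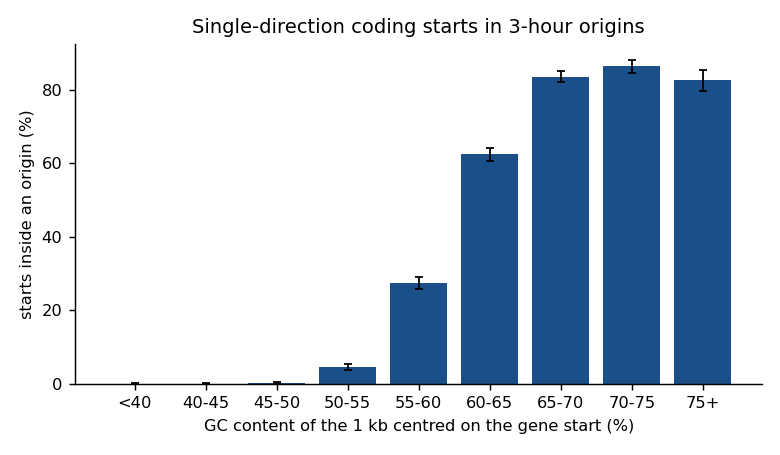
Share of coding gene starts with no opposite coding start within 1 kb that lay in a single-direction 3-hour origin (%), by GC content of the 1 kb around the start; error bars are exact 95% binomial intervals. The share rises from 0 to 3 starts per group below 50% GC to over 82% from 65% GC on.

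Motifs were counted from 250 bases before to 50 after the start, on both strands, and are descriptions of letters and not of binding. GGGCGG, the GC box bound by SP1-family factors, was present at 81.7% of the starts in single-direction origins, 29.3% of those outside and 52.4% of all coding starts. CCGGAAG, a core bound by ETS factors, was at 15.0%, 6.93% and 11.9%. TATAAA, the TATA box that positions the general transcription machinery, was at 4.11%, 16.7% and 10.8%. CCAAT, which NF-Y binds, was at 32.2%, 38.2% and 36.0%, the smallest contrast of the 4. Starts in divergent origins had similar shares of GGGCGG (80.4%) and TATAAA (2.89%), with CCGGAAG at 24.3% and CCAAT at 33.99%, and a GC content of 65.6% over the same 1 kb; these differences were not tested. G4 motifs (4 tracts of 3 or more guanines, 1 to 7 bases apart) lay in the first 500 bp of the gene on the nontemplate strand in 42.3% of the starts in single-direction origins and on the template strand in 29.8%. Outside origins these shares were 16.7% and 11.3%. The starts inside and outside origins differed in GC content (66.4% and 51.8% over 1 kb). The part of base composition in the motif and G4 contrasts was not tested.

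**Figure D5:**
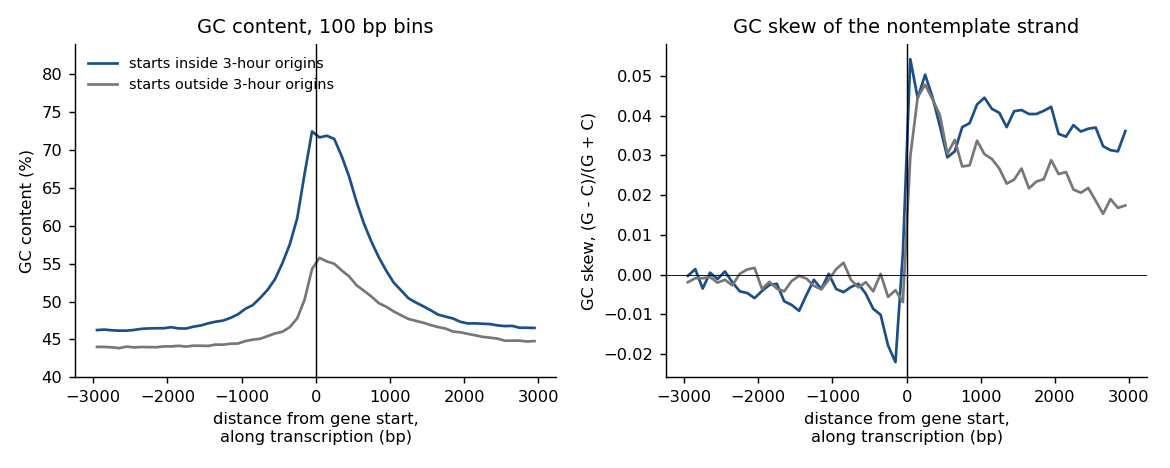
GC content (%, left) and GC skew, (G - C)/(G + C) on the nontemplate strand (right), in 100 bp bins along transcription, summed over starts in single-direction origins (blue, n = 6915) and over single-direction starts outside 3-hour origins (grey, n = 10435). GC content is asymmetric about the start in both sets, and skew steps up at the start in both.

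GC content around starts in single-direction origins was itself shifted downstream. It was 72.5% in the 100 bp before the start and 71.5% at 200 to 300 bp past it, and at equal distances of 400 to 500 bp it was 55.1% upstream and 66.5% downstream. GC skew changed from -0.0220 at 100 to 200 bp upstream to 0.0542 in the first 100 bp of the gene. The step between the 2 kb downstream and the 2 kb upstream averaged 0.0486 and was positive on 23 of 23 chromosomes (permutation test by sign flips, adjusted p = 1.4e-05). At starts outside origins it was 0.0328, a difference of 0.0157 (20 of 23 chromosomes, permutation test by sign flips, adjusted p = 5.9e-05). The 2 sets did not differ at all distances. Skew inside and outside origins was 0.0542 and 0.0297 in the first 100 bp of the gene. It was 0.0444 and 0.0447 at 100 to 200 bp, and 0.0445 and 0.0303 at 1000 to 1100 bp. The part of base composition in the difference between the steps was not tested. At starts in divergent origins the step was 0.0888, larger than in single-direction origins, a difference that was not tested.

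In lists of genes, the share of starts in single-direction origins ran from 0 to 75.9%, set against 35.4% of all 20046 coding gene records (7103, of which 73.0% were called at 15 minutes). Immediate early genes, which respond to growth factors within minutes, had 22 of 29 in such origins (75.9%), and 19 of the 22 were called at 15 minutes. The 1 kb around the starts of this list had a mean GC content of 65.9%, against 58.2% over all coding genes. Of single-direction starts at 60 to 65% and at 65 to 70% GC, 62.4% and 83.5% lay in such origins. The part of GC content in the share of the immediate early genes was not tested. The immediate early genes in such origins had a median efficiency of 0.924 and a median offset of 282.5 bp; KLF6 had 0.984, NR4A2 0.962, JUND 0.954 and KLF2 0.953. JUND and KLF2 were centred 671.5 and 574.5 bp downstream, whereas KLF6 was centred at -69.5 bp, upstream of its start. TATAA at its usual position, between -40 and -18, was present at 37.9% of the starts in this list, at 4.47% of all coding starts and at 2.39% of those in single-direction origins.

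Ribosomal protein and 26S proteasome genes, listed as constitutive, and DNA replication genes had shares of 27.9% to 38.7%, set against 35.4% of all coding gene records. Of all coding gene records, 1421 (7.09%) started in divergent origins and 57.5% in no 3-hour origin. Cytosolic ribosomal protein genes had 23 of 79 (29.1%), with a further 11 in divergent origins and 45 in none, and 11 of the 23 were called at 15 minutes (47.8%, against 73.0% over all coding gene records in such origins). RPL6 had the highest efficiency of that list, 0.953, then RPL13 with 0.944, RPS15 with 0.941 and RPS21 with 0.933. Genes of the 26S proteasome had 12 of 31 (38.7%) with 5 called, led by PSMD11 (0.939), PSMD2 (0.938), PSMD1 (0.931) and PSMD3 (0.927). The list of DNA replication genes had 12 of 43 (27.9%) in single-direction origins. A further 13 of the 43 were in divergent origins, a larger share than the 7.09% of all coding gene records. TOP1 (0.953), the polymerase subunit gene POLD1 (0.928), the primase gene PRIM1 (0.922) and the licensing factor gene CDT1 (0.921) led that list, and PRIM1, at 300 bp, was not called at 15 minutes.

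In the remaining lists, again set against 35.4% of all coding gene records, the share ran from 0 to 36.1%. None of 400 olfactory receptor genes started in a single-direction origin, and the 1 kb around their starts had a mean GC content of 40.2%. Liver secreted protein genes had 2 of 29, CYP2E1 (0.833) and C3 (0.822), neither called at 15 minutes. Urothelium differentiation genes, the tissue from which bladder carcinoma arises, had 4 of 22: UPK3A (0.921), CDH1 (0.909), UPK3B (0.823) and UPK1A (0.808), with 0 of 4 called at 15 minutes. The bHLH, SOX, PAX and FOX developmental transcription factor genes had 14 of 47 (29.8%), of which 10 were called at 15 minutes. The 1 kb around the starts of this list had a mean GC content of 63.8%. Of single-direction starts at 60 to 65% GC, 62.4% lay in such origins, so the share of this list was below that of starts of like GC content. FOXC1 had 0.970, OLIG1 0.969, FOXE1 0.956 and FOXC2 0.945. FOXC1 and FOXC2, both single-exon genes, were centred 585.5 and 921.5 bp downstream. ZNF zinc finger genes had 172 of 476 (36.1%), close to all coding genes, but 54.1% of these were called at 15 minutes against 73.0%; ZNF32 (0.990), ZNF449 (0.980), ZNF771 (0.979) and ZNF488 (0.977) led, and ZNF449, at 300 bp, was not called. These lists carry no test.

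The 7 origins with 3 coding gene records on the same strand had a median length of 6300 bp, and 4 of the 7 were called at 15 minutes. The 5 of them with the highest efficiency are described. That of POLN and HAUS3 on chromosome 4 (2241601 to 2242500) was compact, 900 bp with an efficiency of 0.952, and that with GCSH on chromosome 16 was likewise 900 bp with 0.928. The origin of LRRC26 and TMEM210 on chromosome 9 (137160001 to 137175900) spanned 15900 bp, the longest of all single-direction origins, with 0.871, and that of CRIP1 and TEDC1 on chromosome 14 spanned 7800 bp with 0.866. That of ATP5MF and PTCD1 was 500 bp with 0.862 and was the only one of these 5 not called at 15 minutes; the other 2 of the 7 were not called either. The annotation counts readthrough transcripts, such as the joint record of ATP5MF and PTCD1, as coding gene records of their own.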

How the data were processed

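Positions and values were taken from the deposited lists on hg38. Per the methods, the authors aligned reads with Bowtie2, removed duplicates, scaled HL and LL reads of 100 bp windows to library totals, joined windows that reached a log2(HL/LL) of 2 when within 500 bp, and kept intervals with an efficiency of at least 0.8. The deposited 3-hour value is this efficiency, a fraction, from 2 pooled biological replicates, although its heading names a Z-score; the deposited 15-minute value is a score, a Z-score over that list, whose sample the labels call a control without saying of what. SNS-seq peaks were called by the authors with MACS2 against genomic DNA and hold positions only. Without read counts in the lists the depth of an origin is unknown, and intervals of shares cover counting error only.

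Gene starts came from GENCODE 44. With several coding starts inside, that nearest the centre was used; the centre is the midpoint. Overlap means at least 1 bp. Per-chromosome medians, means or differences (chromosomes with at least 10 origins) were tested by 100000 two-sided sign flips, with Benjamini-Hochberg adjustment over 13 tests; chromosomes are blocks and not replicate cultures, so these p-values measure spread along 1 map. The tests were checked on simulated data with planted offsets. Named origins were the 10 of highest efficiency (at least 1000 bp), the 5 most efficient without a 15-minute call (at least 500 bp), the 5 least efficient with one, the 5 farthest each way, the 5 with the highest 15-minute score (each with 1 coding record), the 5 with most coding records, up to 4 per gene list by efficiency, and TOP1. The members and lists were chosen with earlier results of these data known. The genomic DNA input was not analysed here. Tools were pysam 0.24.0, scipy 1.17.1, Python 3.11.15, pandas 2.3.3 and numpy 2.4.6.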

Additional observations from a re-analysis of the deposited data

How the results depend on the processing

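The 13 tested results were recomputed under 70 alternatives, of which 8 were chosen after seeing the data, at an unadjusted threshold of 0.05. Direction and side of the threshold were kept in 62. The exceptions concerned 3 results. The efficiency difference from divergent origins turned to -0.00217 within 10 GC groups and to -0.00105 within 10 GC and 4 length groups. The recall difference from divergent origins turned to -4.57 points within 10 GC groups and to -1.82 points within 20 efficiency groups, and lost the threshold at 4.08 points with 50% of the 15-minute origin inside and at 1.56 points within 20 efficiency and 4 length groups. The gain difference was 0 bp as a median and 0 bp in origins of at most 1000 bp. It was larger, at 67.98 bp, in pairs whose 15-minute origin also contained the start. The cause was not tested. The 3-hour offset ran from 113.5 bp (canonical start of all single-direction origins) to 224.5 bp (nearest origin within 2 kb), and the efficiency difference from all other origins from 0.0151 (10 GC and 4 length groups) to 0.0657 (medians). The SNS-seq lists hold no heights, the 15-minute list holds no efficiency, and positions are resolved to 100 bp.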
